A study of Mus musculus with 48 samples.

Results

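The 7 genes of P-TEFb control were followed across mouse macrophages given AP-3-84 or vehicle. They are the 7SK small nuclear RNA gene Rn7sk and the protein-coding genes Hexim1, Larp7, Mepce, Cdk9, Ccnt1 and Ccnt2, which make 7 of the 51789 genes in the count table. They were taken by gene symbol. Rn7sk was chosen by its measured values: its very high counts in p53 knockout M0 vehicle libraries and its rise after AP-3-84 in wild-type bone marrow-derived libraries. Its levels in wild-type bone marrow-derived libraries and in p53 knockout M0 libraries are therefore given as a description with no test. So is every comparison that uses them.

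RNA was measured by 3′ mRNA sequencing (QuantSeq FWD) in 48 libraries, in 16 groups of 3. Each of 8 macrophage populations was held for 4 h with 10 µM AP-3-84, known here only by its code name, or with the same amount of DMSO as vehicle. Ascites macrophages came from the peritoneal washes of C57BL/6 mice with the genotype label B6(Cg)-Tyrc-2J/J, 45 days after ID8 tumour cells were injected. Thio macrophages came from wild-type C57BL/6 mice 4 days after thioglycolate, which causes a sterile inflammation of the peritoneum. These peritoneal cells were F4/80+ cells sorted with magnetic beads. The 6 other populations were grown from C57BL/6 bone marrow in 10 ng/mL M-CSF for 6 days (M0), and some were then polarized for 24 h, to M1 with LPS (100 ng/mL) plus IFN-γ (50 ng/mL) or to M2 with IL-4 plus IL-13 (both 10 ng/mL). Titles divide the latter into WT and p53 KO, giving WT_M0, WT_M1, WT_M2, KO_M0, KO_M1 and KO_M2. Their genotype field calls all of them wild-type, and which exons of p53 were deleted is not stated. Ages are not given, and nothing says that the 3 libraries of a group came from separate animals or cultures, so p-values measure only the spread between these libraries.

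As background, P-TEFb is the kinase CDK9 with cyclin T1 or cyclin T2, and it phosphorylates paused RNA polymerase II and its pausing factors so that elongation can start. Much of it is held inactive in the 7SK ribonucleoprotein. There MEPCE caps and holds the 5′ end of 7SK RNA, LARP7 binds its 3′ end, and HEXIM1 docks on the RNA and blocks the kinase. Release of P-TEFb from this particle accompanies many acute stimuli, in macrophages among other cells. 7SK RNA is made by RNA polymerase III and has no long poly(A) tail.

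The start of Rn7sk is shown because HEXIM1 is known to bind GATC-containing repeats of its 5′ hairpin. Rn7sk (ENSMUSG00000065037, GRCm38 chr9:78175303-78175633, minus strand) is annotated as a misc_RNA transcript of 331 bases without introns. Capitals mark each GATC in this 5′ stretch.
Rn7sk: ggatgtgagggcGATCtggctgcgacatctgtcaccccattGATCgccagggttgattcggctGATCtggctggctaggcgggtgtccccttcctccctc
The motif, its own reverse complement, occurred 3 times here and nowhere else in the transcript. Of 139316 annotated transcripts at least as long as the stretch shown, 450 (0.323%) had 3 or more in their own leading stretch of that length.

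The last 40 bases of Rn7sk and of 4 other short transcripts without a long poly(A) tail are shown because the library type primes from poly(A). Capitals mark the last of the longest runs of T in each window.
Rn7sk: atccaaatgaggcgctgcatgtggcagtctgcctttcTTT
Rmrp: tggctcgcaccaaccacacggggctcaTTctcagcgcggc
Rpph1: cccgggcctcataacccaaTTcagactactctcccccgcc
Rny1: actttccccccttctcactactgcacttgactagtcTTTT
Rny3: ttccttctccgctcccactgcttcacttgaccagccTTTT
Rn7sk ended in 3 T, the kind of end that LARP7 is known to bind. Its longest run of A anywhere was 3 bases, and 87.5% of 141767 annotated transcripts had a longer one. The other transcripts are the RNA of RNase MRP (Rmrp, chr4:43492788-43493058, minus strand), the RNA of RNase P (Rpph1, chr14:50807449-50807767, minus strand) and the Y RNAs (Rny1, chr6:47788069-47788180, minus strand; Rny3, chr6:47781624-47781725, plus strand). Of the 302 stretches of 30 bases in Rn7sk, some recurred in 30 other annotated genes. The copy sharing the most, Gm24447, had 0 counts over the 48 libraries, and Gm26315, sharing 68.2% of the stretches, had 971 counts in all. How the authors' counting divided reads among such copies is not given in the sources used here. The protein-coding members were Hexim1 (chr11:103116231-103119725, plus strand), Larp7 (chr3:127536714-127553349, minus strand), Mepce (chr5:137781906-137787655, minus strand), Cdk9 (chr2:32705784-32713076, minus strand), Ccnt1 (chr15:98538689-98570923, minus strand) and Ccnt2 (chr1:127774164-127808061, plus strand).

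Levels are CPM, each library's counts scaled to a common total after TMM normalization, with SDs over n = 3 libraries. A gene is called where the Benjamini-Hochberg adjusted p of edgeR's quasi-likelihood test is under 0.05, over the 16955 genes tested in the peritoneal fit or the 11779 tested in the bone marrow fit. All 7 members passed the low-count filter in each fit. Library totals were 15532373 to 19417581 counts for peritoneal and 3081707 to 4645148 for bone marrow-derived libraries. All 8 macrophage markers (Adgre1, Cd68 and others) were detected in each library. Summed markers of ovarian epithelium or ID8 cells were 185 to 235 CPM in ascites libraries, 2.61 to 4.66 CPM in thio libraries and at most 1.35 CPM in bone marrow-derived libraries. Trp53, which encodes p53, was 4.79 to 13.2 CPM in the 18 WT libraries and 2.7 to 9.11 CPM in the 18 KO libraries, so these 3′ reads did not separate the genotypes. The p53 target Cdkn1a did, at 555 to 1120 CPM against 34.1 to 292 CPM.

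Rn7sk rose after AP-3-84 in both peritoneal populations. In ascites macrophages its level was 41.6, 45.7 and 50.8 CPM with vehicle and 608, 444 and 476 CPM with AP-3-84. The lowest treated library was thus far above the highest vehicle library. Means were 46 ± 4.61 and 509 ± 86.8 CPM, an 11.1-fold difference (log2 fold change 3.47, SE 0.152, 95% interval 3.13 to 3.8, edgeR adjusted p = 1.55e-07). In this comparison 1.79% of all genes were called. Thio macrophages had 56.8, 57.6 and 46.8 CPM with vehicle and 158, 169 and 208 CPM with AP-3-84, again with no overlap. Means there were 53.7 ± 6.04 and 178 ± 26.1 CPM, a 3.31-fold difference (log2 fold change 1.73, SE 0.143, 95% interval 1.42 to 2.05, edgeR adjusted p = 3.7e-05), where 4.32% of genes were called. The thio call was lost when all 48 libraries shared a fit (adjusted p = 0.35). In bulk RNA, more of an RNA per cell and more cells holding it cannot be told apart.

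The ascites response of Rn7sk was larger than the thio response, by 1.73 on the log2 scale (SE 0.199, 95% interval 1.3 to 2.17, edgeR adjusted p = 0.00603). Only 0.118% of genes differed in this way. The call was lost with the replicate number as a block (adjusted p = 0.06) and in the fit of all 48 libraries (adjusted p = 1). Before treatment the populations overlapped in Rn7sk (log2 fold change ascites over thio -0.22, SE 0.143, 95% interval -0.53 to 0.09, adjusted p = 0.298), and the larger response therefore came with a higher treated level in ascites. Summed ID8 markers were 185 to 219 CPM in ascites vehicle and 216 to 235 CPM in ascites AP-3-84 libraries, and their part in the difference was not tested.

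**Figure D1:**
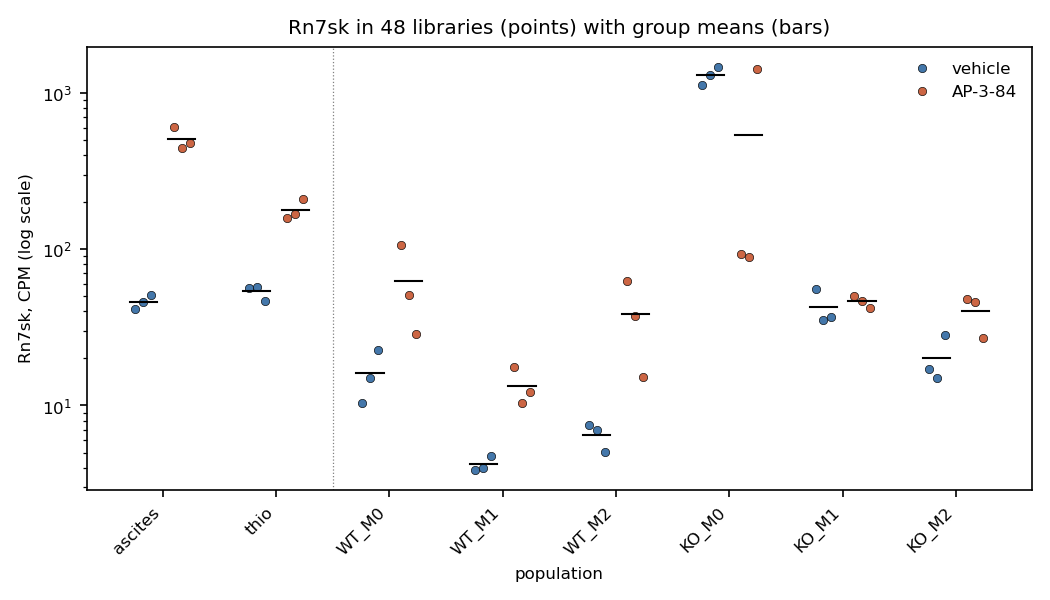
Rn7sk in CPM on a log axis for each of the 48 libraries (points; blue vehicle, orange AP-3-84), by population, with bars at the mean of each group of 3. The 6 treated peritoneal libraries lie at 158 to 608 CPM above vehicle libraries at 41.6 to 57.6 CPM, and the KO_M0 vehicle libraries with 1 KO_M0 AP-3-84 library lie at 1120 to 1460 CPM.

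In wild-type bone marrow-derived macrophages Rn7sk was low with vehicle and higher with AP-3-84 in each polarization, which is part of why it was chosen. WT_M0 libraries had 10.3, 15.1 and 22.7 CPM with vehicle and 107, 50.9 and 28.5 CPM with AP-3-84. WT_M1 libraries had 3.87, 3.97 and 4.78 CPM with vehicle and 17.6, 10.3 and 12.2 CPM with AP-3-84. WT_M2 libraries had 7.51, 6.94 and 5.07 CPM with vehicle and 62.4, 37.3 and 15.3 CPM with AP-3-84. Treated and vehicle libraries did not overlap in any of the 3, and the treated libraries were the more scattered. The log2 fold changes were 1.96, 1.65 and 2.54, in comparisons where 0.144%, 0.017% and 1.21% of all genes were called.

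In p53 KO vehicle libraries Rn7sk was higher in M0 than in M1 or M2, a contrast built on a value used to choose it. KO_M0 vehicle libraries held 1120, 1300 and 1460 CPM (1290 ± 170), the highest group in the series and the other reason for the choice. KO_M1 vehicle libraries held 55.8, 35.4 and 37 CPM, and KO_M2 vehicle libraries 17, 15.1 and 28.3 CPM. Every KO vehicle library was above every WT vehicle library of the same polarization, with log2 fold changes KO over WT of 6.33 in M0, 3.33 in M1 and 1.62 in M2. From M0 to the polarized states the log2 fold change was -1.91 (M1) and -1.28 (M2) in WT and -4.92 (M1) and -6 (M2) in KO.

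AP-3-84 in KO cells gave no called change of Rn7sk where it could be tested. KO_M1 libraries had 50.5, 46.4 and 42.2 CPM with AP-3-84, inside the vehicle range (log2 fold change 0.12, SE 0.694, 95% interval -1.31 to 1.55, adjusted p = 1). KO_M2 libraries had 48.1, 45.9 and 27.2 CPM with AP-3-84, of which the lowest lay below the highest vehicle library (log2 fold change 1.00, SE 0.731, 95% interval -0.5 to 2.51, adjusted p = 0.613). Of these 2 tests edgeR called 0, at an unadjusted p under 0.05 also 0, and DESeq2 0. All genes together had 0% called in KO_M1 (edgeR 0, DESeq2 0, and 206 genes at an unadjusted p under 0.05) and 0.0509% in KO_M2. The thio estimate of 1.73 lies inside the KO_M2 interval and above the KO_M1 interval. Without KO_M0 AP-3-84 library 3, described next, the SEs fell to 0.391 in KO_M1 and 0.414 in KO_M2, and neither was called (adjusted p = 1 and 0.291). The KO_M2 difference was called when no low-count filter was used (adjusted p = 0.000179).

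A single library set the KO_M0 treated level. KO_M0 AP-3-84 libraries 1 and 2 had 93.5 and 89.3 CPM of Rn7sk, far below the vehicle libraries, and library 3 had 1430 CPM, within the vehicle range. The log2 fold change was -1.27 with library 3 and -3.81 without it, where 20.7% and 29.8% of genes were called. Library 3 also stood between the groups in some other genes, but not in all. Marco, a scavenger receptor, was 14.3 to 17.5 CPM with vehicle, 2900 and 2070 CPM in treated libraries 1 and 2, and 473 CPM in library 3. The transporter gene Slc13a3 was 4.33 to 8.93 CPM with vehicle, 2230 and 3260 CPM in libraries 1 and 2, and 737 CPM in library 3. The heat shock gene Hspa1a was 0.308 to 1.89 CPM with vehicle, 36.9 and 11.8 CPM in libraries 1 and 2, and highest in library 3 at 48.7 CPM. Pearson's r of log2 CPM over all genes tested was averaged over pairs of libraries. Library 3 averaged r = 0.949 with the vehicle libraries and r = 0.936 with the other treated libraries. Treated libraries 1 and 2 averaged 0.907 and 0.876 with the vehicle libraries, which averaged 0.96 to 0.963 among themselves. These correlations run across genes, which are not independent replicates. Library 3 is thus labelled as treated and is kept, and values that rest on it are given with and without it. Without it, the treated KO over WT difference in M0 went from 3.11 to 0.56 on the log2 scale. That in M1 was 1.8, and that in M2 was 0.08.

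By mean level, the bone marrow-derived groups ran from KO_M0 vehicle (1290 CPM) and KO_M0 AP-3-84 (536 ± 770 CPM) through WT_M0 AP-3-84 (62 ± 40.2 CPM), KO_M1 AP-3-84 (46.4 ± 4.15 CPM), KO_M1 vehicle (42.7 ± 11.3 CPM), KO_M2 AP-3-84 (40.4 ± 11.5 CPM) and WT_M2 AP-3-84 (38.3 ± 23.6 CPM). Then came KO_M2 vehicle (20.1 ± 7.13 CPM), WT_M0 vehicle (16 ± 6.27 CPM), WT_M1 AP-3-84 (13.4 ± 3.78 CPM), WT_M2 vehicle (6.51 ± 1.28 CPM) and WT_M1 vehicle (4.21 ± 0.498 CPM). Neighbours overlapped down to WT_M1 AP-3-84. The last 2 groups overlapped neither each other nor the group above them. In peritoneal cells the order was ascites AP-3-84, thio AP-3-84, thio vehicle and ascites vehicle, and only the vehicle groups overlapped.

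The genes beside Rn7sk stayed low. C920006O11Rik, on the opposite strand and starting 281 bases upstream, was 0 to 3.77 CPM over the 48 libraries. Gsta4, a glutathione transferase gene, was at most 8.81 CPM, and the kinase gene Ick at most 9.23 CPM.

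Some other transcripts without a long poly(A) tail were higher with AP-3-84 in peritoneal cells. The list of 14 such genes was drawn up with earlier results of these data known, and the genes described here were picked from it after their values were seen. Of the 14, 9 passed the low-count filter, some only through libraries in which they were high (Rmrp was at most 0.38 CPM in peritoneal vehicle libraries), so no count over the list is read as support. Rn7s1 and Rn7s2, 7SL genes with equal counts in all 48 libraries, are not separate measurements.

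The vault RNA Vaultrc5 was 1.74, 2.12 and 0.976 CPM in ascites vehicle and 41, 33.1 and 39.1 CPM in ascites AP-3-84 libraries (log2 fold change 4.54, SE 0.223, adjusted p = 1.5e-09). Its thio values were 0.894, 0.911 and 0.976 CPM with vehicle and 13.9, 11.3 and 17.5 CPM with AP-3-84 (3.93, SE 0.245, adjusted p = 3.2e-08). The Y RNA Rny3 was 1.98, 2.27 and 2.17 CPM in ascites vehicle and 16, 11.6 and 11.1 CPM in ascites AP-3-84 libraries (2.59, SE 0.249, adjusted p = 7.08e-06). For these as for Rn7sk, no treated library overlapped a vehicle library. Rny3 rose in thio as well (2.2, SE 0.248, adjusted p = 4.19e-05).

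Malat1, a nuclear RNA whose stable 3′ end is not polyadenylated, did not follow. It was 5600, 5810 and 6290 CPM in ascites vehicle and 5130, 5610 and 4530 CPM in ascites AP-3-84 libraries (log2 fold change -0.21, adjusted p = 0.573), and 0.04 (adjusted p = 0.92) was its thio value. Annotated classes, summed over all their genes and described without a test, did not all move alike. The 561 misc_RNA genes other than Rn7sk, its own class, summed to 2200 to 3070 CPM in ascites vehicle and 1650 to 3590 CPM in ascites AP-3-84 libraries, which overlapped. Thio sums of this class were 2360 to 2850 CPM with vehicle and higher with AP-3-84, at 2940 to 4150 CPM, without overlap. The 1383 snRNA genes summed to 502 to 554 and 711 to 982 CPM in ascites, without overlap, but to 546 to 591 and 532 to 656 CPM in thio. The 51 scaRNA genes summed to 14.5 to 18.5 and 25.7 to 39.9 CPM in ascites and overlapped in thio. Sums of the 1507 snoRNA genes were 330 to 367 and 407 to 562 CPM in ascites, without overlap, and overlapped in thio. Sums of 69 histone genes taken by symbol were 407 to 496 and 506 to 624 CPM in ascites. In thio those histone sums were lower with AP-3-84, at 328 to 339 and 276 to 325 CPM, and neither population overlapped. The rRNA class was added after values had been seen, and some of its genes are copies with the same counts. Its 354 genes summed to 8.19 to 10.2 CPM in ascites vehicle and 114 to 193 CPM in ascites AP-3-84 libraries, and to 12.1 to 14.2 and 41.4 to 65 CPM in thio. The part of library chemistry in the Rn7sk response was not tested.

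In bone marrow-derived cells the response of the listed transcripts to the compound is only described. Over WT_M0, WT_M1, WT_M2, KO_M1 and KO_M2, 1 of 45 tests was called, 13 had an unadjusted p under 0.05, and DESeq2 called 1. Of all genes, 0% to 1.21% were called in these comparisons. The 9 genes include Rmrp and Scarna2, low outside KO_M0, and the equal Rn7s1 and Rn7s2, so the count is not read as a result. The call was Vaultrc5 in WT_M2, from 1.11, 1.51 and 0.633 CPM to 25.6, 8.31 and 6.67 CPM (log2 fold change 3.59). It had 11 counts in all over the WT_M2 vehicle libraries. Of the bone marrow-derived groups its mean was highest in WT_M2 AP-3-84, so no p is given. The call was lost without WT_M2 AP-3-84 library 1. The median log2 fold change of the 9 was 0.02 in WT_M0, 1.05 in WT_M1, 0.83 in WT_M2, 0.06 in KO_M1 and 0.8 in KO_M2. These libraries were shallower than the peritoneal ones, and whether the responses differed between the origins was not tested.

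Scarna2, a guide RNA of Cajal bodies, was 1.12, 0 and 1.02 CPM in WT_M0 vehicle and 16.5, 20.9 and 25.2 CPM in KO_M0 vehicle libraries. In bone marrow-derived libraries outside KO_M0 it reached at most 3.3 CPM, so it was testable through its high group and no test is given. In KO_M0 AP-3-84 libraries it was 1.52 and 1.97 CPM in libraries 1 and 2 and 16.1 CPM in library 3, which was the highest there for Rn7sk too. Rn7s1 was 34.5, 26.8 and 28.4 CPM in WT_M0 vehicle and 51.9, 52.3 and 76.5 CPM in KO_M0 vehicle libraries (1.01, SE 0.255, adjusted p = 0.00279). It did not share the low treated values, at 52.8, 46.1 and 88.7 CPM. Rmrp was 4.19, 3.39 and 8.66 CPM in KO_M0 vehicle and 0.758, 0.247 and 5.03 CPM in KO_M0 AP-3-84 libraries, again with library 3 near the vehicle libraries. Rmrp was at most 1.28 CPM in the bone marrow-derived groups outside KO_M0. Malat1 was called for AP-3-84 in KO_M0 (log2 fold change -0.79, adjusted p = 0.0369, called under 10 of 15 alternatives), and what these shared patterns contribute to the Rn7sk levels was not tested.

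**Figure D2:**
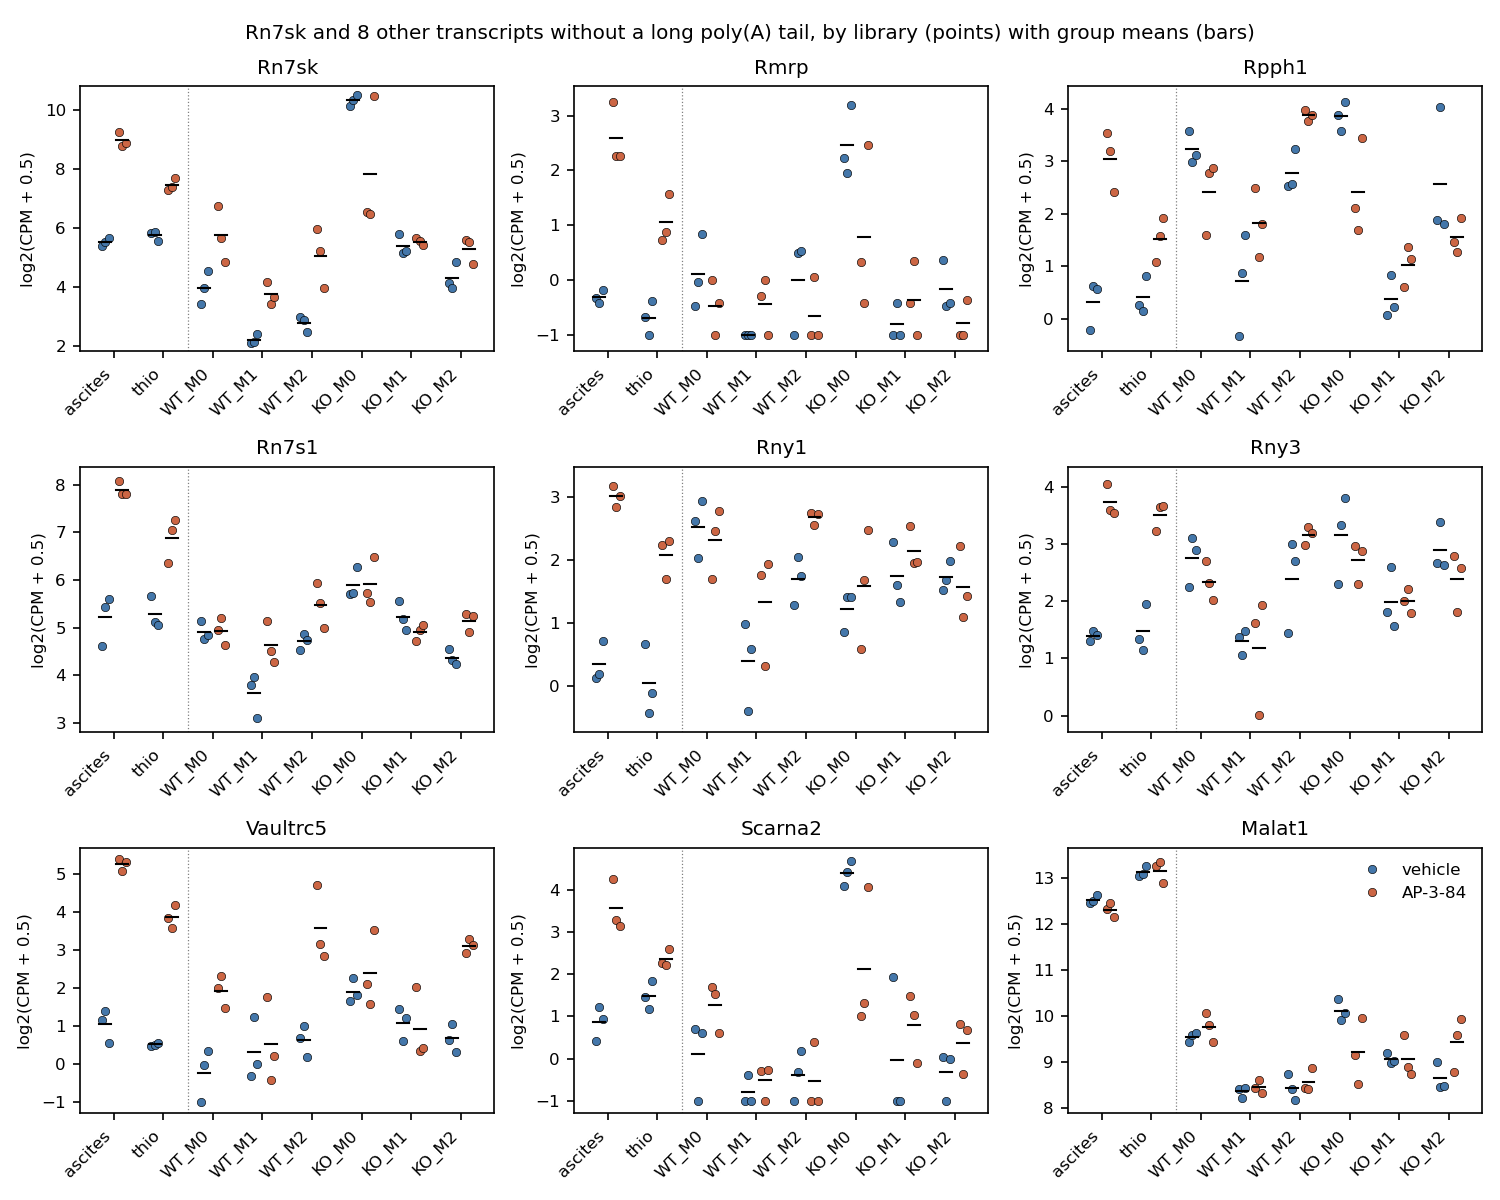
Rn7sk and 8 other transcripts without a long poly(A) tail as log2(CPM + 0.5) in each library (points; blue vehicle, orange AP-3-84), with bars at group means of the plotted values. All but Malat1 were higher in treated than in vehicle ascites libraries, and Scarna2 and Rmrp share with Rn7sk the high KO_M0 vehicle libraries and the high treated library 3.

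No protein-coding member passed the test after AP-3-84. Over 8 populations and 6 genes, edgeR called 0 of 48 tests, 7 had an unadjusted p under 0.05, and DESeq2 called 0. Background shares of called genes in these comparisons ran from 0% to 20.7%, so a count of 0 among 6 is near the background in most of them and does not show that the genes were unaffected. In ascites the highest estimates were those of Larp7 and of the cyclin gene Ccnt1. Larp7, which encodes the 3′-end binding protein of 7SK, was 48.4, 56.1 and 53.9 CPM with vehicle and 65.8, 60.2 and 64.8 CPM with AP-3-84 (log2 fold change 0.27, SE 0.0797, 95% interval 0.1 to 0.44, adjusted p = 0.128). Ccnt1 was 62.4, 68.5 and 65.4 CPM with vehicle and 84.5, 69.4 and 80.1 CPM with AP-3-84 (0.25, SE 0.0827, 95% interval 0.08 to 0.43, adjusted p = 0.192). In both genes all treated libraries were above all vehicle libraries and the interval lay above 0, but neither passed the adjusted threshold. Ccnt1 in thio was likewise 58.6, 56.8 and 58.8 CPM with vehicle and 65.2, 62.7 and 72.1 CPM with AP-3-84, without overlap (0.2, 95% interval 0.02 to 0.38, adjusted p = 0.238).

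Hexim1, the gene of the P-TEFb inhibitor, was 42.4, 41.2 and 40 CPM in ascites vehicle and 45.2, 45.2 and 44 CPM in ascites AP-3-84 libraries (log2 fold change 0.12, 95% interval -0.05 to 0.3, adjusted p = 0.677). In thio it was 36.6, 33.8 and 34.7 CPM with vehicle and 30.2, 34.1 and 29.2 CPM with AP-3-84 (-0.17, 95% interval -0.35 to 0.01, adjusted p = 0.357). Its estimates in the 6 bone marrow-derived populations ran from -0.33 in WT_M2 to 0.23 in KO_M0. The kinase gene Cdk9 had estimates from -0.15 to 0.25 over the 8 populations, the capping enzyme gene Mepce from -0.52 to 0.25, and Ccnt2 from -0.47 to 0.34. The 95% intervals of the 6 genes lay between -0.53 and 0.44 in peritoneal cells. In the less deeply sequenced bone marrow-derived libraries they were wider, from -0.96 (Mepce in WT_M2 and Ccnt2 in KO_M0) to 0.84 (Ccnt2 in WT_M0).

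**Figure D3:**
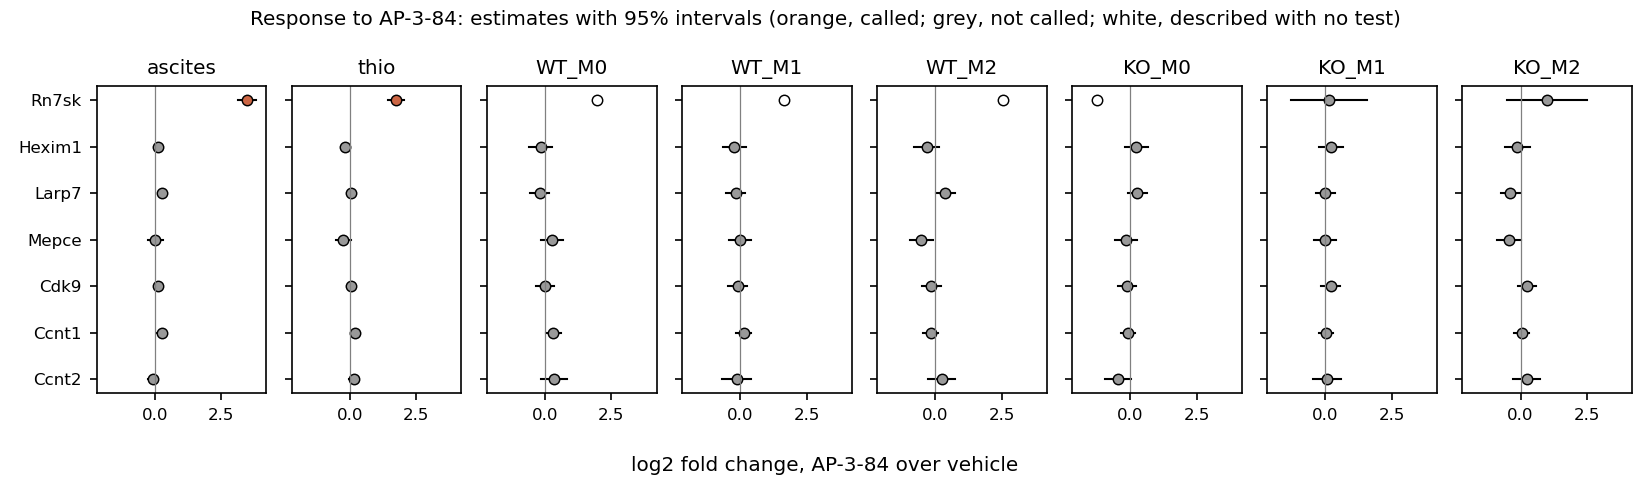
Log2 fold changes of AP-3-84 over vehicle for the 7 genes in the 8 populations, with 95% intervals as bars. Orange points were called, grey points were not, and white points are described with no test. Rn7sk in ascites (3.47) and thio (1.73) are the called points, and the 6 protein-coding genes lie between -0.52 and 0.37 in all populations.

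Differences between responses were not called for the protein-coding members either. Over ascites minus thio and KO minus WT in M0, M1 and M2, edgeR called 0 of 24 tests, 4 had an unadjusted p under 0.05, and DESeq2 called 0. The share of all genes called was 17% for KO minus WT in M0, 0.00849% in M1 and 1.77% in M2. The largest estimate was that of Ccnt2 in M0 (-0.81, SE 0.345, adjusted p = 0.104). Larp7 in M2 was next (-0.77, SE 0.248, adjusted p = 0.105). Larp7 there was 62.1, 82.6 and 98.5 CPM in WT_M2 vehicle and 110, 101 and 105 CPM in WT_M2 AP-3-84 libraries, but 90.7, 132 and 135 CPM and then 96.2, 76.1 and 99.7 CPM in KO_M2. It was called without KO_M2 vehicle library 1 (adjusted p = 0.019). For Rn7sk, described without a test, the KO minus WT difference in response was -3.22 in M0 (-5.77 without KO_M0 AP-3-84 library 3), -1.53 in M1 and -1.54 in M2.

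Between p53 KO and WT macrophages 6 of 36 tests of the protein-coding members were called, and Mepce was called in none. The share of all genes called ran from 3.56% to 33.2% over these 6 comparisons, so the count says nothing particular to the members. In M0 vehicle libraries 3 of 6 were called, where 33.2% of all genes were. Ccnt2, the gene of cyclin T2, was 13.7, 17.9 and 19.7 CPM in WT and 37.5, 28.3 and 39.2 CPM in KO libraries, with no overlap (log2 fold change KO over WT 1.04, SE 0.245, adjusted p = 0.00159). Ccnt1 was 38.8, 50.7 and 52.4 CPM in WT and 61.8, 59.4 and 68.4 CPM in KO libraries (0.42, SE 0.136, adjusted p = 0.0167). Hexim1 moved the other way, from 62.4, 79.1 and 67 CPM in WT to 54, 38.2 and 38.9 CPM in KO libraries (-0.67, SE 0.219, adjusted p = 0.0184). Summed macrophage markers were 30400 to 38800 CPM in WT_M0 and 32500 to 39100 CPM in KO_M0 vehicle libraries, and neutrophil markers 261 to 487 and 564 to 714 CPM, whose part was not tested. Larp7, Mepce and Cdk9 were not called in M0 vehicle libraries. Rn7sk was at its highest in the same KO_M0 libraries, which was part of why it was chosen, and a link to these genes was not tested.

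The Hexim1 and Ccnt1 calls in M0 each rested on single libraries. Hexim1 was not called without WT_M0 vehicle library 2 (adjusted p = 0.0799), KO_M0 vehicle library 2 (0.0777) or KO_M0 vehicle library 3 (0.0788). Ccnt1 was not called without WT_M0 vehicle library 1 (adjusted p = 0.148) or KO_M0 vehicle library 3 (0.0951), without a low-count filter (0.231), or in a fit of only the groups compared (0.0702). Ccnt2 was called under all 15 alternatives.

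Hexim1 was also lower in KO among M1 vehicle libraries, at 93, 87.7 and 64.7 CPM in WT and 32.4, 48.4 and 37.7 CPM in KO (log2 fold change -1.05, SE 0.22, adjusted p = 0.00224). It was called under all 15 alternatives. Cdk9 was lower there too, at 87.6, 80.3 and 78.5 CPM in WT and 50.3, 65.1 and 52.4 CPM in KO (-0.55, SE 0.173, adjusted p = 0.0331). That call was lost under 7 of 15 alternatives, among them scaling by total counts (adjusted p = 0.253), and without each of WT_M1 vehicle libraries 1 (0.116), 2 (0.0751) and 3 (0.0654) and KO_M1 vehicle libraries 1 (0.135) and 3 (0.13). In that comparison 2 of 6 members and 11.6% of all genes were called. Summed macrophage markers were 44000 to 47000 CPM in WT_M1 and 16300 to 25700 CPM in KO_M1 vehicle libraries, and neutrophil markers 436 to 563 and 980 to 2470 CPM. Their part in these differences was not tested.

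Among M2 vehicle libraries no member was called, beside 3.56% of all genes (edgeR 0 of 6, 1 at an unadjusted p under 0.05, DESeq2 1). Larp7 came nearest, at 62.1, 82.6 and 98.5 CPM in WT and 90.7, 132 and 135 CPM in KO (log2 fold change 0.56, SE 0.176, adjusted p = 0.0671). In AP-3-84 libraries 1 of 18 tests was called. Larp7 was 97.4, 104 and 59.5 CPM in WT_M1 and 132, 127 and 140 CPM in KO_M1 (0.61, SE 0.175, adjusted p = 0.0205), a call lost without WT_M1 AP-3-84 library 3 (0.159) or KO_M1 AP-3-84 libraries 1 (0.0594) or 3 (0.0673). In M0 and M2 no member was called (edgeR 0 of 6 in each, 0 at an unadjusted p under 0.05, DESeq2 0). The share of all genes called was 11.8% in M0, 11.8% in M1 and 11.5% in M2.

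Polarization went with lower levels of some members, and no member was called higher. The M1 and M2 comparisons of a genotype share its M0 libraries, and those of KO share the KO_M0 vehicle libraries with the genotype comparison above. In WT, M1 against M0 had 0 of 6 members called by edgeR, beside 15.5% of all genes, with 1 at an unadjusted p under 0.05 and 1 called by DESeq2. Larp7 gave the lowest p, at 155, 119 and 134 CPM in M0 and 96, 94.1 and 104 CPM in M1 (log2 fold change -0.47, SE 0.174, adjusted p = 0.0635). In M2 against M0, 2 of 6 members were called beside 23.4% of all genes. Hexim1 fell to 32, 29 and 17.4 CPM in WT_M2, from 62.4, 79.1 and 67 CPM in WT_M0 (-1.41, SE 0.226, adjusted p = 2.27e-05), and Larp7 fell to 62.1, 82.6 and 98.5 CPM (-0.75, SE 0.176, adjusted p = 0.00207). WT_M2 was the lowest vehicle group for Hexim1, and WT_M1, at 81.8 ± 15 CPM, the highest.

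In KO cells Ccnt2 and Cdk9 were lower in M1 than in M0, and Ccnt1 was not called. The 2 of 6 members called stand beside 44.5% of all genes. Ccnt2 fell from 37.5, 28.3 and 39.2 CPM to 9.89, 15.7 and 13.2 CPM (log2 fold change -1.43, SE 0.251, adjusted p = 2.74e-05). Cdk9 fell from 90.9, 81 and 72.5 CPM to 50.3, 65.1 and 52.4 CPM (-0.54, SE 0.173, adjusted p = 0.0113). The Cdk9 call was lost without KO_M0 vehicle library 1 (0.0637), KO_M1 vehicle libraries 1 (0.0562) or 3 (0.0503), or a low-count filter (0.0507).

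For M2 against M0 in KO, 4 of 6 members were called beside 38% of all genes, all lower. They were Ccnt1 (from 63.2 ± 4.67 to 39.5 ± 4.11 CPM, log2 fold change -0.68, adjusted p = 0.000219), Ccnt2 (from 35 ± 5.85 to 17.8 ± 5.11 CPM, -0.98, adjusted p = 0.00208), Mepce (from 35.2 ± 5.49 to 20.1 ± 1.92 CPM, -0.8, adjusted p = 0.00286) and Cdk9 (from 81.5 ± 9.23 to 59.9 ± 15.8 CPM, -0.44, adjusted p = 0.0408). Only the Cdk9 libraries overlapped, and its call was lost under 6 of 15 alternatives, among them without KO_M0 vehicle libraries 1 (0.131) or 2 (0.0645) and without KO_M2 vehicle libraries 2 (0.292) or 3 (0.0738). Hexim1, at 34, 28.4 and 28.8 CPM in KO_M2 vehicle, gave -0.53 (adjusted p = 0.0617). Marker levels moved with polarization too. Summed macrophage markers were 25000 to 31000 CPM in WT_M2 and 5970 to 18500 CPM in KO_M2 vehicle libraries, against at least 30400 CPM in M0, and neutrophil markers reached 3940 CPM in WT_M2 library 1 and 3260 CPM in KO_M2 library 3. Their part was not tested. Whether polarization acted differently in WT and KO was not tested.

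**Figure D4:**
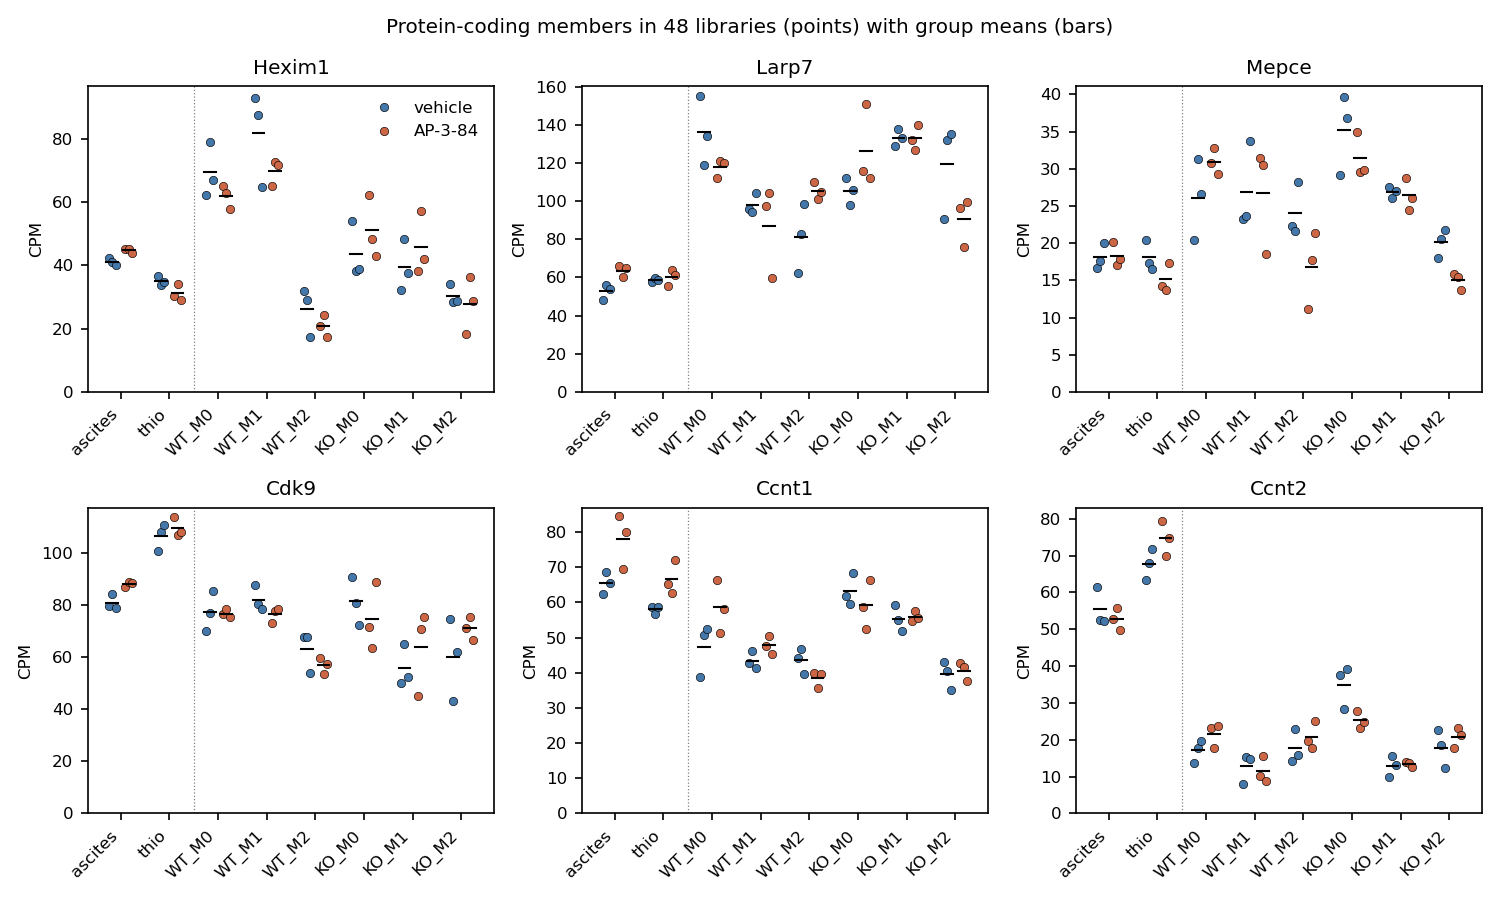
The 6 protein-coding genes in CPM in each library (points; blue vehicle, orange AP-3-84), by population, with bars at the means of groups of 3 and axes from 0. Hexim1 is lowest in M2 cells of WT (20.9 and 26.1 CPM on average), and Ccnt2 is at 28.3 to 39.2 CPM in KO_M0 vehicle against at most 22.9 CPM in the other bone marrow-derived vehicle libraries.

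Ascites and thio vehicle libraries differed in Cdk9, Ccnt2 and Hexim1. These are 3 of the 7 genes, near the background of 33.7% of all genes, and Ccnt1 was not called. Cdk9 was lower in ascites, at 79.6, 84.3 and 78.9 CPM against 101, 108 and 111 CPM (log2 fold change -0.4, SE 0.0629, adjusted p = 6.68e-05), under all 14 alternatives. Ccnt2 was lower at 61.5, 52.6 and 52.3 CPM against 63.5, 68 and 71.7 CPM (-0.29, SE 0.0852, adjusted p = 0.0133), lost among others without ascites vehicle libraries 2 (0.0715) or 3 (0.0683) or thio vehicle library 3 (0.0712). Hexim1 was higher at 42.4, 41.2 and 40 CPM against 36.6, 33.8 and 34.7 CPM (0.24, SE 0.0835, adjusted p = 0.0375), and was called under only 4 of 14 alternatives. Mepce gave 0 (95% interval -0.27 to 0.27). The ascites libraries also held the ID8 markers given above, whose part was not tested.

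Among the 12 peritoneal libraries Hexim1 ran opposite to Cdk9 and Ccnt2 but not to Ccnt1. As a description over libraries that share their groups, Pearson's r of log2 CPM was -0.85 for Hexim1 with Cdk9, -0.91 for Hexim1 with Ccnt2 and 0.87 for Cdk9 with Ccnt2. Ccnt1 gave 0.46 with Hexim1, -0.4 with Cdk9 and -0.54 with Ccnt2. Over the 36 bone marrow-derived libraries Hexim1 with Cdk9, Hexim1 with Ccnt2 and Cdk9 with Ccnt2 gave 0.61, -0.21 and 0.19. Rn7sk went with Ccnt1 at 0.8 in peritoneal and 0.66 in bone marrow-derived libraries, with Larp7 at 0.74 and 0.21, and with Hexim1 at 0.25 and -0.09. With Ccnt2 it gave -0.22 and 0.63, with Mepce -0.03 and 0.32, and with Cdk9 0 and 0.18. Bone marrow-derived values for Rn7sk include the libraries whose levels were used to choose it, so they are not read as support for a link.

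Genes around P-TEFb were followed by lists of 69 tested genes. For AP-3-84 in ascites 2 of the 69 were called, both among 12 partners of 7SK or P-TEFb release, beside 1.79% of all genes. In thio 2 of the 69 were called, beside 4.32% of all genes. Neither count says anything particular to the lists. In ascites Jmjd6, a demethylase known to act in P-TEFb release, rose from 37.9 to 51.1 CPM on average (log2 fold change 0.43, SE 0.0855, adjusted p = 0.00945). It was not called without ascites AP-3-84 library 1 (0.0996) or ascites vehicle library 2 (0.0835). Ddx21, a helicase known to help release P-TEFb from 7SK, rose from 184 to 234 CPM (0.34, SE 0.0822, adjusted p = 0.0407), a call lost under 9 of 14 alternatives, among them without AP-3-84 library 1 (0.295) or any of vehicle libraries 1 (0.23), 2 (0.0713) and 3 (0.117). Ddx21 rose in thio too, from 130 to 175 CPM (0.42, SE 0.0828, adjusted p = 0.00615), and the RNA polymerase II gene Polr2a fell from 116 to 97.4 CPM (-0.26, SE 0.0673, adjusted p = 0.0382), called under 8 of 14 alternatives and lost without AP-3-84 libraries 2 (0.126) or 3 (0.121) or vehicle libraries 1 (0.16), 2 (0.0646) or 3 (0.113). The partner list's median was 0.08 in ascites beside 0 for all genes, and 0 in thio beside 0.03. Of 28 genes of RNA polymerase III and its factors, the enzyme that makes 7SK, none was called in ascites or thio (edgeR 0 and 0, unadjusted p under 0.05 in 5 and 2, DESeq2 0 and 0). Super elongation complex genes and other transcription kinases also had none called in either population (edgeR 0, unadjusted p under 0.05 in 2 and 1 of 7 and in 0 and 0 of 8, DESeq2 0).

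Over WT_M0, WT_M1, WT_M2, KO_M1 and KO_M2 none of 345 tests of these genes was called (edgeR 0, unadjusted p under 0.05 in 23, DESeq2 1). In KO_M0 14 of 69 were called, beside 20.7% of all genes, a share near that background. In the partner list 5 of 12 rose (median 0.4 beside -0.03 for all genes), led by Ddx21, from 157 to 356 CPM (1.18, adjusted p = 0.000149), and the splicing factor gene Srsf2, from 134 to 234 CPM (0.81, adjusted p = 0.000439). In the super elongation complex Ell2 rose from 61 to 179 CPM (1.55, adjusted p = 0.000502) and the scaffold gene Aff4 fell from 48.5 to 30.5 CPM (-0.67, adjusted p = 0.0261). Among pausing and elongation factors 2 of 14 rose, Wdr61 among them (0.41, adjusted p = 0.0418), and Supt4a fell (-0.5, adjusted p = 0.0125). For RNA polymerase III 2 of 28 rose and 2 fell, with Polr3d at 0.87 (adjusted p = 0.00461) and Polr3gl at -0.94 (adjusted p = 0.0181). No other transcription kinase was called (edgeR 0 of 8, 1 at an unadjusted p under 0.05, DESeq2 0). With KO_M0 AP-3-84 library 3 left out, 19 of the 69 were called in place of 14. Leaving out other single libraries ended the calls of Aff4 (AP-3-84 libraries 1 or 2, vehicle libraries 2 or 3; 0.0534 to 0.209), Wdr61 (AP-3-84 libraries 1 or 2 and each vehicle library; 0.0813 to 0.182), Supt4a (AP-3-84 library 2, 0.116; vehicle library 2, 0.128), Polr3gl (AP-3-84 library 2, 0.1; vehicle libraries 2, 0.0702, or 3, 0.0609) and Polr3d (AP-3-84 library 1, 0.0509).

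Comparing KO with WT in M0 vehicle libraries, 19 of the 69 were called, beside 33.2% of all genes, so the count says nothing particular to the lists. That comparison shares the KO_M0 vehicle libraries with the one above, so opposite signs are built in. In the partner list 6 of 12 were lower in KO and none higher (median -0.63 beside 0.03), among them Srsf2 (-0.81, adjusted p = 2e-04) and the RNA-binding protein gene Hnrnpa2b1 (-0.75, adjusted p = 0.00101). Super elongation complex genes were lower in 3 of 7 and higher in 1, with Ell2 at -1.53 (adjusted p = 0.000294) and Aff1 at -0.76 (adjusted p = 0.000959). Of the pausing factors 2 were higher, Supt4a (0.55, adjusted p = 0.00428) and Supt5 (0.44, adjusted p = 0.0193), which encode the subunits of DSIF, and 1 was lower. Polymerase III genes were lower in 4 of 28 and higher in 1, with Polr3gl higher (1.17, adjusted p = 0.00235) and the La protein gene Ssb lower (-0.44, adjusted p = 0.00502). Of the other kinase genes the cyclin gene Ccnc was lower (-0.84, adjusted p = 0.0421). Single libraries decided the calls of Ccnc (WT_M0 libraries 1, 0.0748, or 2, 0.243; KO_M0 libraries 1, 0.0664, or 3, 0.222), Supt5 (WT_M0 library 1, 0.0702; KO_M0 library 3, 0.0809) and Supt4a (KO_M0 library 2, 0.0608).

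Between ascites and thio vehicle libraries 20 of the 69 were called, beside 33.7% of all genes, again no more than the background. The partner Hnrnpa1 was 139 CPM in ascites and 54 CPM in thio on average (1.37, adjusted p = 3.13e-10), and Ddx21 was also higher in ascites (0.5, adjusted p = 0.000114), with 4 of 12 higher and 1 lower. Ell2 was higher (1.03, adjusted p = 1.54e-07), Polr2a lower (-0.69, adjusted p = 2.54e-07) and Supt4a higher (0.39, adjusted p = 0.000365). Ccnk was higher (0.41, adjusted p = 0.000773) and Cdk13 lower (-0.22, adjusted p = 0.0302), a cyclin and a kinase that are known partners. The Cdk13 call was lost under 8 of 14 alternatives, among them without ascites libraries 1 (0.12) or 3 (0.093) or thio libraries 1 (0.123) or 3 (0.0652). Polymerase III genes were higher in 6 of 28 and lower in 3, and the alternative subunits Polr3g (-1.42, adjusted p = 2.68e-05) and Polr3gl (-0.59, adjusted p = 0.00105) were both lower.

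The genes most like Rn7sk were found by Pearson's r of log2 CPM among tested genes, as a description. Over the 36 bone marrow-derived libraries they were Gm26917 (0.892), Csnk1e (0.879), Scarna2 (0.876), Col8a1 (0.868) and Dkk3 (0.856), and all had their highest mean of the bone marrow-derived groups in KO_M0 vehicle. The long noncoding RNA gene Gm26917 was 604 ± 73.6 CPM there and 18.9 ± 4.25 CPM in WT_M0 vehicle. The collagen gene Col8a1 was 19 ± 2.16 and 1.66 ± 0.337 CPM. Over the 12 peritoneal libraries they were Tmem245 (0.993), Tmprss11a (0.992) and the 5S rRNA genes n-R5s110, Gm23284 and n-R5s141 (0.991 each). The 5S genes had the same values in every group and are not separate measurements. They were at most 0.255 CPM in peritoneal vehicle and 2.93 to 5.29 CPM in ascites AP-3-84 libraries, and so were testable through treated libraries. Tmem245 was 77.8 ± 5.4 CPM in ascites vehicle, 850 ± 223 in ascites AP-3-84, 99.7 ± 5.36 in thio vehicle and 308 ± 39.8 in thio AP-3-84 libraries. Tmprss11a, a protease gene, was 8.6 ± 0.337 and 204 ± 63.6 CPM in ascites and 7.7 ± 0.645 and 53.3 ± 10.9 CPM in thio. In bone marrow-derived cells these genes did not share the pattern of Rn7sk, with Tmem245 at 24.9 ± 2.85 CPM in KO_M0 vehicle and Tmprss11a at no more than 0.603 CPM in any library. For Hexim1 the nearest genes were Twf1 (0.894), Xylt2 (0.879) and Sh3bp1 (0.876) in bone marrow-derived libraries, and Gm26637 (0.977), Gjb5 (0.974) and a gene without a symbol, ENSMUSG00000053656 (0.972), in peritoneal libraries.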

How the data were processed

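The authors deposited raw counts per Ensembl gene and library. Per the submitters' processing notes RSEM, Bowtie2 and DESeq2 were used. The genome build and the tools' versions and roles are not given in the sources used. Libraries were grouped by title. Gene IDs were matched to GENCODE M21 (GRCm38; 51596 found, 193 not), which gave coordinates and sequences.

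Counts were tested with edgeR 4.0.16 (R 4.3.3; filterByExpr by group, TMM, robust quasi-likelihood fit, 1 mean per group, two-sided, Benjamini-Hochberg over all genes tested), in 12 peritoneal and 36 bone marrow-derived libraries apart, for 23 comparisons. Common biological coefficients of variation came to 0.168 for peritoneal and 0.225 for bone marrow-derived libraries. The code was tested on simulated data. No column repeated another. Where 3 counts or fewer lie behind a value, counting error dominates.

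The members and lists were chosen with earlier results of these data known. Besides the members, at most the 2 called genes with the lowest p were to be named per list and comparison, and the 5 genes most like Rn7sk and the 3 most like Hexim1. Other transcripts named from the list without a long poly(A) tail, Marco, Slc13a3, Hspa1a, Cdkn1a and the rRNA class were picked after their values were seen.

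Other settings tried were no low-count filter, scaling by total counts, median-ratio size factors, DESeq2 1.42.0, only the groups compared, all 48 libraries in a fit, a replicate block, leaving out each library, and, chosen after seeing the data, a bone marrow fit without KO_M0 AP-3-84 library 3.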

Additional observations from a re-analysis of the deposited data

Results flagged for a closer look

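The AP-3-84 response of Rn7sk differed between the peritoneal populations by an interaction test. Its log2 fold change was 3.47 in ascites and 1.73 in thio macrophages, and the difference was 1.73 (SE 0.199, edgeR adjusted p = 0.00603). It held under 18 of 20 alternatives, at 1.59 to 1.86, and was lost with the replicate block and in the fit of all 48 libraries.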

How the results depend on the processing

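Counted as member and comparison pairs, 2 of 52 were called for AP-3-84, both Rn7sk (1 to 3 over the alternatives, 1 with all 48 libraries in a fit). For KO against WT 6 of 36 were called (4 to 9 over the alternatives), and for polarization 8 of 24 (6 to 13, with 13 under scaling by total counts). For ascites against thio it was 3 of 7 (1 with all 48 libraries, 1 to 3 leaving out a library). For differences between responses it was 1 of 25 (0 with all 48 libraries, 1 to 2 leaving out a library). The share of all genes called is given with each comparison above. Scaling by total counts moved the median of all genes by up to -0.3 (M1 against M0 in WT). The treated KO over WT difference of Rn7sk in M2, 0.08, ranged from -0.3 to 0.61 when single libraries were left out and changed sign to -0.3, -0.06 and -0.01 without WT_M2 AP-3-84 library 3, KO_M2 AP-3-84 library 1 and KO_M2 AP-3-84 library 2. The cause was not tested. Same-numbered libraries deviated together in few of 24 pairs (r from -0.33 to 0.38, 4 over 0.1), so the numbers were not taken to pair them. With the replicate block 0 differences between responses were called, against 1 without it. Of 124 member and comparison pairs not called, 15 were called under some alternative and 42 changed sign under some. Depth limits low values in bone marrow-derived libraries, with 13 to 19 counts of Rn7sk in WT_M1 vehicle libraries.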
